A study of Mus musculus with 2 samples.

Results

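The 10 genes described here encode receptor chains for cytokines that act on myeloid cells: Csf3r, Csf1r, Csf2ra, Csf2rb, Csf2rb2, Il3ra, Il6ra, Il6st, Il18r1 and Ifngr1. They were taken by name from the 19938 genes that the array's annotation ties to probe sets with 1 gene symbol, and each of the 10 had 1 such probe set. KSL cells are bone marrow cells that are positive for c-Kit and Sca-1 and lack lineage markers, and they contain the blood stem cells and the earliest multipotent progenitors. One group was Nrf2 KO, lacking the redox-sensitive transcription factor NRF2 (gene Nfe2l2), and the other was wild type. Both were on the C57BL/6J background, young and healthy, 8 to 10 weeks old, and kept in a clean germ free facility. In each group the marrow of 5 mice was pooled before sorting and gave 1 RNA sample on 1 array, so no value has a replicate and no test was possible. The 2 values of a gene are given as log2 intensities, and a difference is always the knockout value minus the wild-type value on the log2 scale.

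Granulocyte colony-stimulating factor (G-CSF) drives neutrophil production and moves stem cells from the marrow into the blood through its receptor, which works as a pair of identical chains. Macrophage colony-stimulating factor (M-CSF) acts through a receptor tyrosine kinase. The other receptors here are built from a chain that binds 1 cytokine and a second chain that is often shared between cytokines and carries the signal to JAK kinases and STAT factors, except that the IL-18 receptor signals through MYD88. In immature cells, the level of such receptors is linked to myeloid priming, the low expression of lineage genes before commitment.

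The receptors did not move together. In the knockout array Csf1r and Il18r1 were lower, Csf2rb and Il6st were higher, and the receptor for G-CSF was close to level. Of the 10 genes, 6 had a difference above 0 and 4 had one below 0, where 46.5% of the 9970 genes past the level filter were above 0 and 52.9% below. The filter kept genes whose mean over both arrays reached the median over genes, 6.57, and all 10 receptors passed it. At least 1.5-fold lower were 2 of the 10, against 4.30% of all genes past the filter, and at least 1.5-fold higher were 0 of the 10, against 2.34%. None of the 10 reached 2-fold, a size that 0.762% of genes reached downward and 0.411% upward. The median difference of the 10 was 0.12, between −0.67 and 0.58, and the median over all genes past the filter was −0.02.

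Genes past the filter were also divided by mean level into 4 bands of near-equal number, so that a difference could be set beside those of genes of similar brightness. As a scale for single differences, the SD over all genes past the filter was 0.33, and 9 of the 10 receptors lay within the middle 95% of genes, from −0.73 to 0.57. Genes with exactly 2 probe sets, 515 in number, served to estimate the SD of a single probe set's difference around that of its gene. From the disagreement between the 2 probe sets, this SD was 0.31, or 0.17 by a robust estimate. It measures probes only, and mice, sorts and amplifications add a spread that was not measured. For 5 of the 10 receptors (Csf3r, Csf2ra, Csf2rb2, Il6ra and Ifngr1), the difference was smaller than both estimates.

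**Figure D1:**
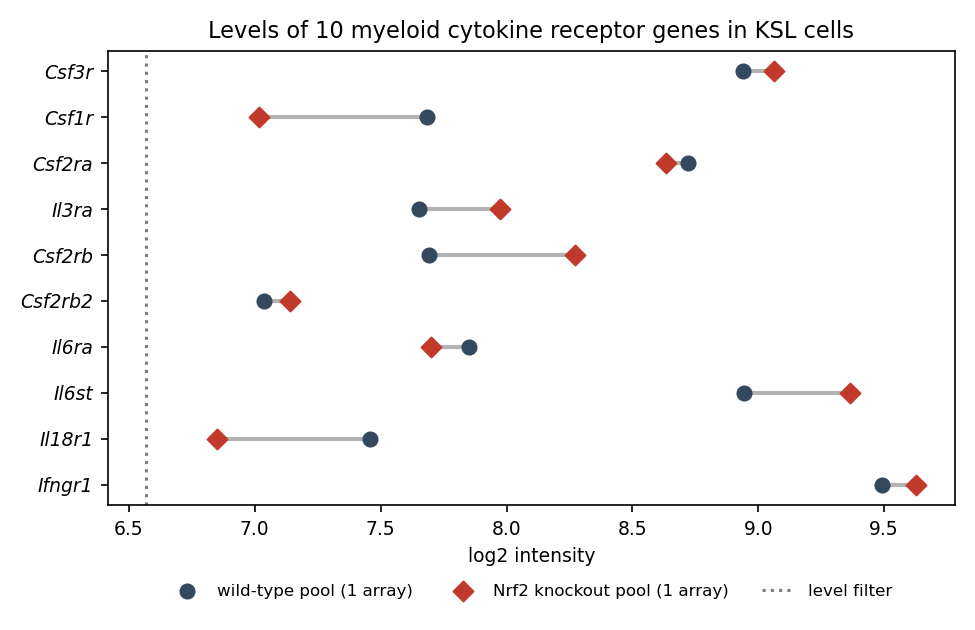
Log2 intensity of each receptor gene in the wild-type pool (circles) and the Nrf2 knockout pool (diamonds), 1 array each and so with no error bars; the dotted line is the level filter at 6.57. The widest gaps are those of Csf1r and Il18r1, lower in the knockout pool, and of Csf2rb, higher in it.

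A few genes were set beside the sort and the genotypes given in the labels. None of them tells which array is the knockout. Kit, which encodes the c-Kit of the sort gate, stood at 11.21 in knockout cells and 10.93 in wild-type cells. The Sca-1 gene Ly6a had no probe set of its own symbol and was not analysed here. Nfe2l2 itself stood at 9.07 and 9.16, a difference of −0.09, and with the deleted segment not stated in the labels, this probe set does not check the genotype. Markers of mature neutrophils, which the gate should leave out, gave signal on both arrays, as for S100a8 at 10.34 and 11.79.

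Csf3r encodes the receptor for G-CSF. Its log2 level was 9.06 in knockout cells and 8.94 in wild-type cells. The knockout value was the higher of the pair by 0.12, or 1.09-fold, and 52.5% of genes in the same band of mean level differed by at least as much in either direction. Mature neutrophils carry this receptor, and neutrophil markers were much lower in the same array. All 16 neutrophil markers past the filter were below 0, with a median of −1.46. Some of these, such as Retnlg at 5.36 in knockout and 8.01 in wild-type cells, passed only through the wild-type array. That selection favours differences below 0. With no filter, 18 of the 19 measured were below 0, with a median of −1.45, and Ly6g was above 0 by 0.51. The summed intensity of the 19 was 8045 in the knockout against 18679 in the wild-type array. Csf3r was thus not among the genes that were lower with these markers, and their part in its level was not tested. Fewer cells of a type and less RNA per cell cannot be told apart in pooled cells.

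Csf1r encodes the M-CSF receptor, a kinase that also binds IL-34 and is a hallmark of the monocyte lineage. It stood at 7.02 in knockout cells and 7.68 in wild-type cells. This was the largest difference of the 10, −0.67, or 1.59-fold lower, and 5.86% of genes in the same level band differed by at least as much. The gap between the differences of Csf3r and Csf1r was 0.79, where the gap between 2 genes would have an SD of 0.46 if genes varied independently with the overall spread. Monocyte and macrophage markers were lower in the same array. Without Csf1r, 6 of the 7 that passed the filter were below 0, with a median of −0.80, and the summed intensity of the 13 measured was 1905 against 2449. With the filter at the 75th percentile, only Ms4a6b and Cd68 of this list were left, at −0.80 and 0.63, and their median was −0.09. Ccl6 was 2.86-fold and Ms4a6c 2.01-fold lower, while the lysosomal glycoprotein Cd68 was 1.55-fold higher. Ccl6 and Fn1 had knockout values below the filter level, 6.51 and 6.41, and passed only through the wild-type array. The part of these cells in the Csf1r difference was not tested.

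The receptors for GM-CSF and IL-3 share the beta chain encoded by Csf2rb, which serves the IL-5 receptor as well. Csf2rb stood at 8.27 in knockout cells and 7.69 in wild-type cells. It had the highest difference of the 10, 0.58 or 1.49-fold, just short of the 1.5-fold size. In the same level band, 8.63% of genes differed by at least as much in either direction. Over all levels, 97.6% of genes past the filter had a lower difference. With quantile normalization of the arrays, or with loess on mean level, its difference was 0.62 or 0.61 and past 1.5-fold.

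Csf2rb2 is the second beta chain of mice, specific to IL-3 and very similar to Csf2rb in sequence, which lies next to it on chromosome 15. Its values were 7.14 in knockout cells and 7.03 in wild-type cells, a difference of 0.11. The difference of Csf2rb exceeded it by 0.47, close to the SD of such a gap. Probes of one gene could detect RNA of the other, so the division of signal between these neighbours is uncertain.

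Both chains that bind the cytokine had a smaller difference than Csf2rb, and that of Il3ra was larger than that of Csf2rb2. Csf2ra, the GM-CSF binding chain, stood at 8.63 in knockout cells and 8.72 in wild-type cells, a difference of −0.09. The difference of its partner Csf2rb was higher by 0.67. Il3ra, the IL-3 binding chain, stood at 7.97 and 7.65, a difference of 0.32 that 28.7% of genes in the same level band equalled or exceeded in size. Thus 3 of the 4 chains of this family were above 0, and the chain that binds GM-CSF was slightly below. Il5ra, which pairs with Csf2rb for IL-5, was below the level filter at 4.50 and 4.11. In the same array, mast cell and basophil markers, cells that bear the IL-3 receptor, had a median of −0.15 over the 7 that passed the filter, with 5 of the 7 below 0 (0.28 with the filter at the 75th percentile), and the summed intensity of the 11 measured was 4369 in the knockout against 3803 in the wild-type array. Kit, which KSL cells carry themselves, is 1 of the 11, and the 0.28 is its own difference. Kit and Prg2, the latter at 10.00 in knockout cells and 9.47 in wild-type cells, are the brightest of the 11. The summed intensity therefore rests mostly on Kit and Prg2, which were the 2 above 0 of the 7 past the filter. The lowest of the 7 was Hdc, at 6.89 in knockout cells and 7.66 in wild-type cells, 1.70-fold lower.

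**Figure D2:**
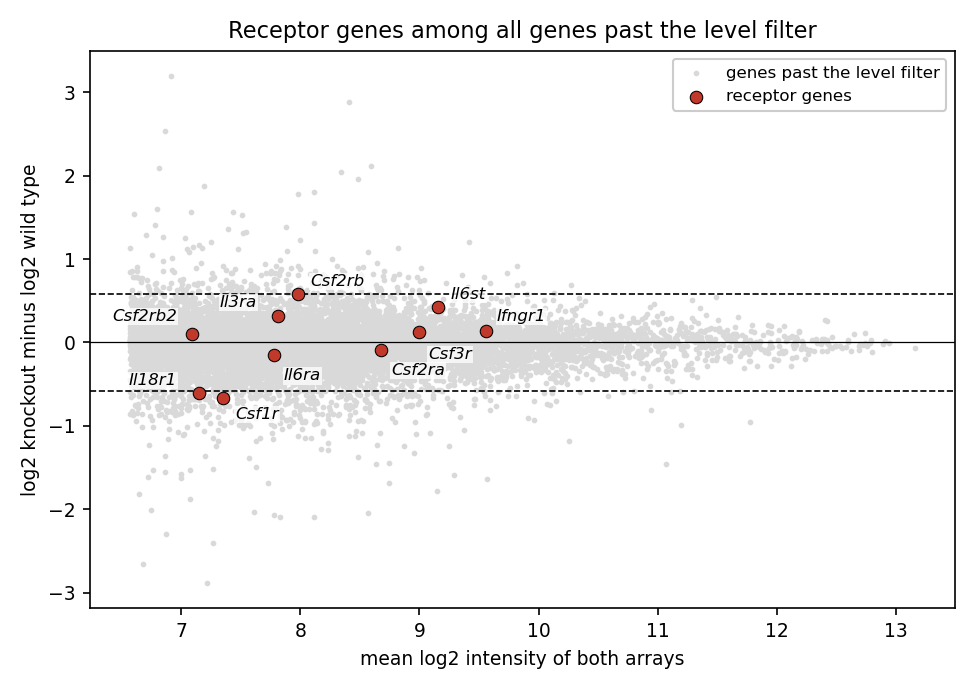
Difference of each gene past the level filter (grey points, 9970 genes) against its mean log2 intensity, with the 10 receptor genes in red; dashed lines mark 1.5-fold. Csf1r and Il18r1 lie below the lower line, Csf2rb lies at the upper line, and the other receptors lie between the lines.

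IL-6 binds the chain encoded by Il6ra, and the pair then engages gp130, encoded by Il6st, the signalling chain shared by most cytokines of the IL-6 family. Il6ra stood at 7.70 in knockout cells and 7.85 in wild-type cells, a difference of −0.15. Il6st stood at 9.36 and 8.94, so that the shared chain was 1.34-fold higher in the knockout array while the binding chain was slightly below level. Of genes in the same level band as Il6st, 7.10% had a difference at least as large as its 0.42. The gap between the differences of the IL-6 receptor chains was 0.58, above the SD of 0.46 for a gap between genes. Of other receptor chains that work with gp130, those encoded by Lifr, Osmr and Cntfr were below the level filter, and the IL-27 receptor chain Il27ra passed it at 6.77 in knockout cells and 6.58 in wild-type cells, a difference of 0.19.

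Il18r1 encodes the chain that binds IL-18, and Il18rap the accessory chain that completes the receptor. Il18r1 stood at 6.85 in knockout cells and 7.46 in wild-type cells, a difference of −0.61 or 1.53-fold lower, and 7.66% of genes in the same level band differed by at least as much. Its knockout value lay close to the filter at 6.57, so the size of the difference is less sure than for brighter genes. The accessory chain Il18rap was listed at 7.94 on both arrays, to the last deposited digit. Such exact equality held for 734 of the 28853 probe sets and for 63 of the genes past the filter, the step that gives it is not stated, and the value may not be a separate measurement of each pool, so no contrast between the chains is drawn from it. T and NK cells carry the IL-18 receptor too, and their markers had a median of −0.11 over the 5 that passed the filter, 3 of them below 0. Those below 0 were Ccl5 at −0.70, Nkg7 at −0.48 and Cd3e at −0.11, while Thy1 and Prf1 were above 0, at 0.36 and 0.19. The summed intensity of the 12 measured was 1802 against 2081, and Nkg7 is the brightest of the 12. The part of T and NK cells in the Il18r1 difference was not tested.

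Ifngr1 encodes the chain that binds interferon gamma, a cytokine that acts directly on blood stem cells. It stood at 9.63 in knockout cells and 9.49 in wild-type cells, a difference of 0.13. Its partner Ifngr2 stood at 8.23 and 8.21, a difference of 0.02. Both chains of this receptor were thus close to level, and 49.7% of genes in the same level band as Ifngr1 had a difference as large as its own.

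None of the 9 genes for ligands of these receptors passed the level filter. M-CSF, encoded by Csf1, stood at 5.61 in knockout cells and 6.64 in wild-type cells, and IL-18, encoded by Il18, at 5.89 and 6.69. These were the ligands of the receptor genes that were lower by at least 1.5-fold, and they differed in the same direction, by −1.03 and −0.80, at levels where differences are less sure. The other M-CSF receptor ligand, Il34, differed by 0.10. Csf3, which encodes G-CSF, stood at 5.64 and 5.63 and was level. The remaining ligand genes had differences of −0.11 for Csf2, −0.11 for Il3, 0.06 for Il5, −0.05 for Il6 and 0.24 for Ifng. Neighbouring cells of the marrow make many of these cytokines, and only sorted cells were measured.

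**Figure D3:**
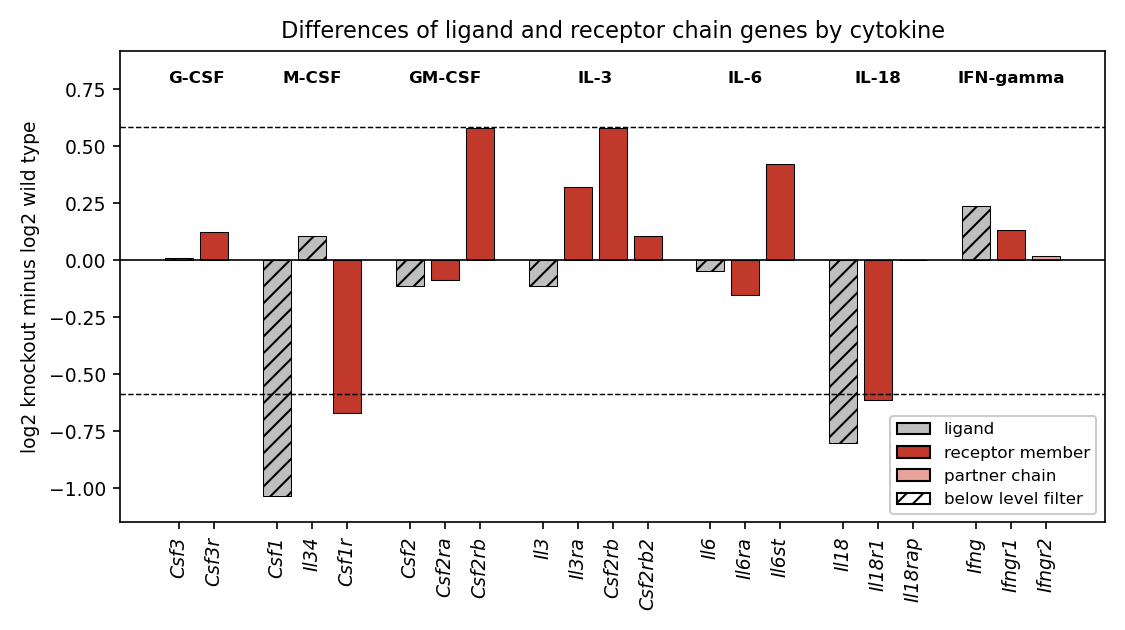
Log2 knockout minus log2 wild type for the ligand (grey), the receptor chains described here (red) and partner chains (pale red) of each cytokine shown. Each genotype had 1 pool, so there are no error bars. Hatched bars are genes below the level filter, and dashed lines mark 1.5-fold. Csf2rb appears under GM-CSF and IL-3, and the IL-5 receptor, which also uses it, is not drawn. Csf1 with Csf1r, and Il18 with Il18r1, point down, and Il18rap is listed at the same value on both arrays.

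Genes that signal downstream of these receptors differed about as often as other genes. Of 31 listed, 26 were measured and passed the filter, 15 below 0 and 11 above, with a median of −0.05. At least 1.5-fold lower was 1 of the 26, against the 4.30% of all genes, and 0 were as much higher, against 2.34%. The 1 gene was Socs3, a feedback inhibitor that binds the G-CSF receptor and gp130, which stood at 6.82 in knockout cells and 7.48 in wild-type cells, 1.58-fold lower. The receptor chains it binds differed by 0.12 for Csf3r and 0.42 for Il6st.

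Other haematopoietic cytokine receptors gave a median of −0.01 over the 17 that passed the filter of 34 listed, with 9 below 0 and 8 above. The one past 1.5-fold was Il1r2, the decoy receptor for IL-1 carried by neutrophils, at 6.52 against 7.88. Its knockout value was below the filter level of 6.57, so it passed only through the wild-type array. The 3 partner and related chains that passed the filter, of 5 listed, lay between −0.004 and 0.02. Among them is Il18rap, whose equal values may not be separate measurements of each pool.

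Transcription factors known to act on promoters of myeloid receptors were examined in the same way. Of 16 listed, 14 passed the filter, with a median of −0.08. Below 0 were 11 of the 14, against 52.9% of all genes past the filter. PU.1, the product of Spi1 and a regulator of the Csf1r, Csf2ra and Csf3r promoters, stood at 8.78 in knockout cells and 8.89 in wild-type cells, a difference of −0.12. Cebpa, needed for granulocyte commitment, differed by −0.11, and Runx1 was higher by 0.36. At least 1.5-fold lower were 2 of the 14, against 4.30% of all genes, and 0 were as much higher, against 2.34%. The 2 were Egr2, at 8.32 against 9.27, and the late granulocyte factor Cebpe, at 6.35 against 6.94. Cebpe was only just past the size, at 1.5001-fold. The knockout value of Cebpe was below the filter level of 6.57, so Cebpe passed only through the wild-type array.

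**Figure D4:**
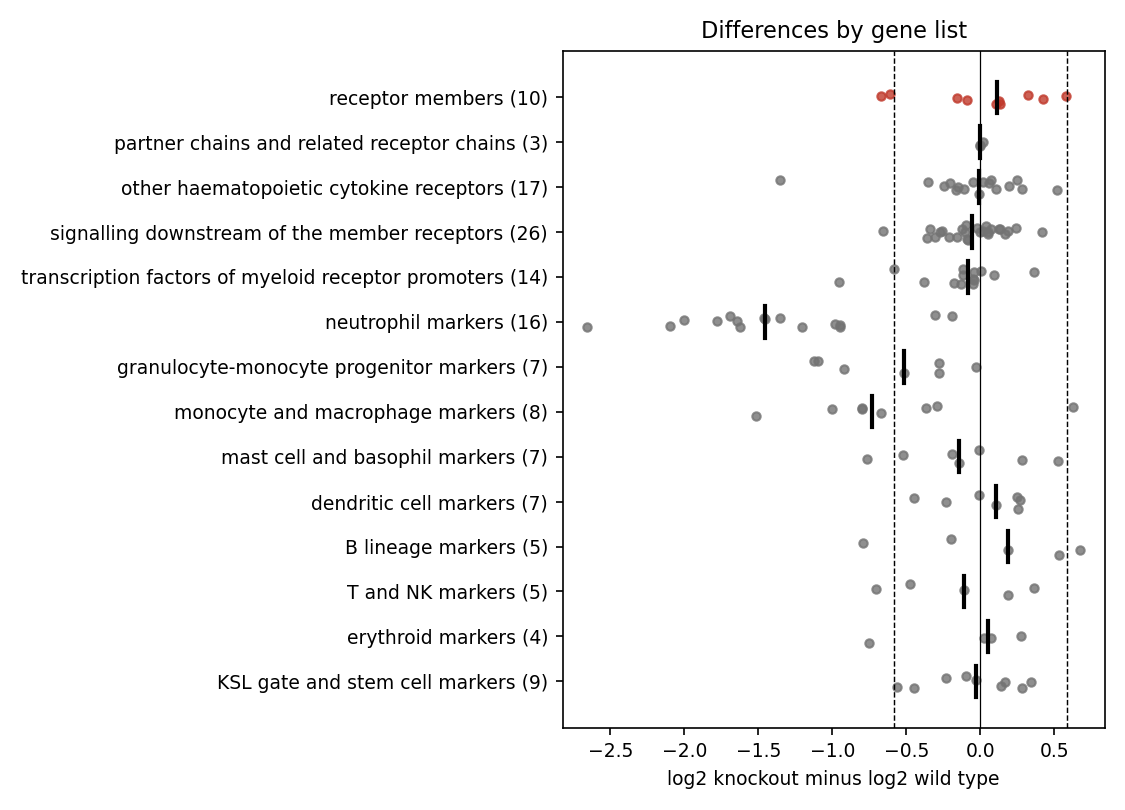
Log2 knockout minus log2 wild type for the genes past the level filter in each list (points, number in brackets), with black bars for medians and dashed lines at 1.5-fold. The receptors spread on both sides of 0 around a median of 0.12, while all 16 neutrophil markers past the filter lie below 0.

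Markers of the remaining cell types that a sort could hold were summarised beside the receptors. Granulocyte-monocyte progenitor markers were below 0 in 7 of 7, with a median of −0.51 (−0.28 with the filter at the 75th percentile); the granule protease gene Elane was lowest, 2.18-fold below the wild-type value. The summed intensity of the 8 measured was 7966 in the knockout against 9904 in the wild-type array. These progenitors carry Csf3r, Csf1r and Csf2ra, which differed by 0.12, −0.67 and −0.09, and the part of the progenitors in those values was not tested. Dendritic cell markers had a median of 0.10 over 7, B lineage markers of 0.18 over 5, erythroid markers of 0.05 over 4, and KSL gate and stem cell markers of −0.03 over 9, which became 0.16 with the filter at the 75th percentile.

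Promoter sequences from RefSeq (GRCm38.p6) were available for 8 of the 10 genes and were searched over the 250 bases before an annotated start, on both strands. The motifs were the antioxidant response element TGACNNNGC, which NRF2 binds with small MAF proteins, the PU.1 core GAGGAA, and the C/EBP motif TTNNGNAA. The antioxidant motif was in 0 of the 8, and in 10.2% of 32851 promoter windows of the same length. The PU.1 core was in 5 of the 8 (Csf3r, Csf2ra, Csf2rb2, Il6ra and Il18r1) and in 23.3% of all windows, and the C/EBP motif in 3 of the 8 (Csf2ra, Il3ra and Il6ra) and in 36.9%. In Il6ra 1 match of each overlapped. A short match is a description of letters and not a site, and the windows hold no distal elements. The Il18r1 match was in 1 of its 3 annotated starts. The counts out of 8 are of genes with a match in any window, while the percentages are of single windows, so the units differ. Below are the windows of Csf3r and Csf2ra, the colony-stimulating factor receptors among the 8, and of Il18r1 at its first start and Il6st, the lowest and the highest difference among the 8, 5′ to 3′ along the gene with matches in capitals.
Csf3r, chr4:126024409-126024658, plus strand: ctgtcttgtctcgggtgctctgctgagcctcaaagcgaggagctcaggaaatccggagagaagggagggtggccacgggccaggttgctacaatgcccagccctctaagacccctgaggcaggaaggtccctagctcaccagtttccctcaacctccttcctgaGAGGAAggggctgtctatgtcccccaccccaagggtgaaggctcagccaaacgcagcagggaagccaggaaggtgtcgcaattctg
Csf2ra, chr19:61228419-61228668, minus strand: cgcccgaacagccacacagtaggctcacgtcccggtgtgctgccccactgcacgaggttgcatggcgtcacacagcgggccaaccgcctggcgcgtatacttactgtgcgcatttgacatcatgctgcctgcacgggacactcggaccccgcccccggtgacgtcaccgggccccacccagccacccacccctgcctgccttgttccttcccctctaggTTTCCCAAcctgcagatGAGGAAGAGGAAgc
Il18r1, chr1:40465302-40465551, plus strand: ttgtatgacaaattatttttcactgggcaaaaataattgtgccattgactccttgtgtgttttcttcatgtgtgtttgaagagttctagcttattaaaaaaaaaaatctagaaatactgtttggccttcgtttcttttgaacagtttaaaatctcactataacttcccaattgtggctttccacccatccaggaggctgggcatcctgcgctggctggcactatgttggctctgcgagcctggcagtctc
Il6st, chr13:112463820-112464069, plus strand: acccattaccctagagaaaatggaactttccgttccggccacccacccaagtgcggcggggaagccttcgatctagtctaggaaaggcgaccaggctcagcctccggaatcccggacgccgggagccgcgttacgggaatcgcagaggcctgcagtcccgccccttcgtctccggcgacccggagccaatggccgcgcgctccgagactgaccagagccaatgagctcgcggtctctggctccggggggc

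The capitals in Csf3r are 1 PU.1 core that begins 86 bases before the start. Those in Csf2ra are a pair of PU.1 cores, 14 and 8 bases before the start, and a C/EBP match on the other strand at 31 bases. The printed windows of Il18r1 and Il6st held no match to the 3 motifs. The receptors with a PU.1 core included genes on both sides of 0, from −0.61 for Il18r1 to 0.12 for Csf3r.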

How the data were processed

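RNA was measured from 2 pools of sorted KSL cells, 1 per genotype. Per the labels' protocols, a Qiagen RNeasy kit gave the total RNA and NuGEN Ovation kits the labelled target, and the arrays were Affymetrix Mouse Gene ST 1.0. Partek is named in the submitters' processing notes without a role. Amplification can distort the difference of a single gene. Each deposited value is a log2 intensity of 1 probe set; the base was taken from the values, which reach 13.8, and how background and normalization were handled is not given in the sources used here. Sorted values of the arrays differ by at most 0.0866, so a shift of all genes one way could not be seen. Arrays have no read depth, and their number limits the precision.

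Of 28853 probe sets, 21789 had 1 symbol in the platform annotation, 1621 several and 5443 none; those with 1 were averaged per gene. By Entrez ID, 21698 matched GRCm38.p6 and 0 symbols changed. Differences were computed from the deposited values with no further scaling and no test. The level filter is not a test of detection. The sizes 1.5-fold and 2-fold were used for description. The receptors, the context and marker lists and the naming rule were chosen with earlier results of these data known. Named were the 10 receptors, Nfe2l2, all ligands, Il18rap, Ifngr2, Il5ra, Spi1, Cebpa, Runx1 and list members past the filter and 1.5-fold (at most 6 a list, not all printed). Kit, S100a8, Ly6g, Prg2, Ly6a, Lifr, Osmr, Cntfr, Il27ra, Nkg7, Cd3e, Thy1 and Prf1 were added after their values were seen. So were the genes next to Csf2rb and Il18r1. The procedure was tested on simulated data with 200 planted differences, larger than any of the receptors and with no scatter between arrays. That checks the computation and not how well small differences are found. Alternatives were median centring, quantile normalization, loess with a span of 0.3, no filter or a filter at the 75th percentile, the brightest probe set of a gene, 2-fold size and leaving out Csf2rb2. Python 3.11.15, numpy 2.4.6, pandas 2.3.3 and statsmodels 0.14.6 were used.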

Additional observations from a re-analysis of the deposited data

How the results depend on the processing

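The sign of each of the 10 receptor differences was the same under median centring, quantile normalization, loess on mean level and the probe set of highest mean. Csf1r ranged from −0.68 to −0.65, Il18r1 from −0.62 to −0.59, Csf2rb from 0.57 to 0.62 and Csf3r from 0.12 to 0.16. The count of receptors at least 1.5-fold higher went from 0 to 1, Csf2rb, with quantile normalization and with loess. With the filter at the 75th percentile (8.07), 4 receptors were left (Csf3r, Csf2ra, Il6st and Ifngr1); 0 were at least 1.5-fold lower and 1 had a difference below 0, since Csf1r, Il18r1 and Il6ra were not among them. At 2-fold size, 0 receptors were lower. The median of the receptors stayed between 0.11 and 0.14 over all alternatives, and the median of all genes past the filter between −0.03 and 0.01. Medians of small marker lists depended more on the choice of genes. With the filter at the 75th percentile, the median went from −0.73 to −0.09 for monocyte and macrophage markers and from −0.51 to −0.28 for granulocyte-monocyte progenitor markers. It changed sign for mast cell and basophil markers (−0.15 to 0.28) and KSL gate and stem cell markers (−0.03 to 0.16). The −0.09 rests on Ms4a6b and Cd68 alone, and the 0.28 is the difference of Kit. The median of other cytokine receptors lay between −0.02 and 0.03 with either sign. With no filter the progenitor median was −0.72 and the KSL median 0.06, and with the brightest probe set the B lineage median went from 0.18 to 0.36. The neutrophil median stayed between −1.47 and −1.44. No paired analysis was possible because each genotype had 1 array, and leaving out a replicate was not possible for the same reason. With 1 pool per genotype, differences between genotypes, pools, sorts and amplifications cannot be told apart.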

Other observations

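Genes next to 2 of the receptors on the chromosome were looked at after the values had been seen, in the order of protein-coding genes in GRCm38.p6 and over 4 genes on each side. Around Csf2rb, 6 of 8 neighbours passed the level filter and all 6, Csf2rb2 among them, were above 0 in the knockout array, as were 46.5% of all genes past the filter. Tst, which encodes the mitochondrial sulfurtransferase rhodanese and lies beyond Tex33, stood at 8.76 in knockout cells and 7.76 in wild-type cells, a difference of 1.00. Ift27, a subunit of the transport machinery of cilia, stood at 8.68 and 7.89, a difference of 0.78. The others were close to level, with Ncf4 at 0.09, Csf2rb2 at 0.11, Mpst at 0.12 and Kctd17 at 0.13. Probes of Csf2rb2 could detect RNA of Csf2rb, so its value may not be a separate observation. Below the filter, Pvalb differed by −0.01 and Tex33 by 0.28. A difference of the region as a whole was not tested. Csf2rb, at 0.58, thus lies among genes of which 2 differed by more than it did.

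Around Il18r1, in the cluster of IL-1 receptor family genes on chromosome 1, 3 of 8 neighbours passed the filter. Il1r2 and the IL-36 receptor gene Il1rl2 were below 0, at −1.36 and −0.33, and Il18rap, the nearest on the other side, was equal in both arrays. Il1r2 passed the filter only through the wild-type array.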
